A study of Mus musculus with 8 samples.

Results

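The diacylglycerol kinases are a family of enzymes whose transcripts were followed here across 8 chronic stroke infarcts. The 9 genes were chosen by name (*Dgka*, *Dgkb*, *Dgkd*, *Dgke*, *Dgkg*, *Dgkh*, *Dgki*, *Dgkq* and *Dgkz*) after Ensembl identifiers were matched to symbols, and they are 9 of 46078 listed genes. All 9 passed the filter on low counts, which kept 14736 genes. The animals were wild-type C57BL/6J mice, 18 months old, all with DH stroke (distal occlusion of the middle cerebral artery with hypoxia). Starting 1 week after stroke, they were injected under the skin 3 times per week for 6 weeks with sterile PBS (vehicle, n = 4) or with 4 g/kg HPβCD (n = 4), a ring-shaped sugar that binds cholesterol. Infarcts were collected 7 weeks after stroke and cut out by eye, so they could hold varying amounts of the brain next to them. The comparison addressed which of these kinases differed between vehicle- and HPβCD-treated infarcts, and which of them went with the amount of neuronal transcript in the piece.

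Diacylglycerol kinases add a phosphate to diacylglycerol, a membrane lipid that recruits protein kinase C and the RasGRP activators of Ras, and so turn it into phosphatidic acid, itself a signal and a building block of phosphoinositides. The mammalian enzymes share a catalytic domain and cysteine-rich domains and are sorted by what else they carry. Type I (*Dgka*, *Dgkb*, *Dgkg*) has calcium-binding EF hands, type II (*Dgkd*, *Dgkh*, *Dgkk*) a pleckstrin homology domain, type III (*Dgke*) no further regulatory domain, type IV (*Dgkz*, *Dgki*) ankyrin repeats and a stretch like the phosphorylated site of MARCKS, and type V (*Dgkq*) a Ras-associating domain. Several are abundant in the brain, *Dgkb* in the medium spiny neurons of the striatum in particular, whereas *Dgka* and *Dgkz* are also known for damping T cell receptor signaling.

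All genes are on GRCm38. *Dgkb* (ENSMUSG00000036095) covers chr12:37817726-38634239 on the plus strand and *Dgkd* (ENSMUSG00000070738) chr1:87853287-87945180 on the plus strand. The others lie on the minus strand: *Dgka* at chr10:128720134-128744855, *Dgkg* at chr16:22468461-22657221, *Dgkh* at chr14:78558750-78732776, *Dgke* at chr11:89035179-89066850, *Dgkz* at chr2:91932824-91975864, *Dgki* at chr6:36846022-37300184 and *Dgkq* at chr5:108646693-108669672. All 9 are annotated as protein coding. The 2 genes the results turn on most, *Dgkb* and *Dgkd*, are shown by the 250 bases before a RefSeq transcription start (GRCm38.p6, plus strand). The first is chr12:37879924-37880173, which lies inside the longer *Dgkb* gene model given above, and the second is chr1:87853037-87853286. Capitals mark CpG dinucleotides.
Dgkb: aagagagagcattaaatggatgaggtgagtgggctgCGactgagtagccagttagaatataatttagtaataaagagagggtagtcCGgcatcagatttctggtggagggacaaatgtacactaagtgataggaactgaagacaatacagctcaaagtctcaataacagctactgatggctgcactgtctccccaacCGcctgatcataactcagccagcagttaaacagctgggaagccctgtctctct
Dgkd: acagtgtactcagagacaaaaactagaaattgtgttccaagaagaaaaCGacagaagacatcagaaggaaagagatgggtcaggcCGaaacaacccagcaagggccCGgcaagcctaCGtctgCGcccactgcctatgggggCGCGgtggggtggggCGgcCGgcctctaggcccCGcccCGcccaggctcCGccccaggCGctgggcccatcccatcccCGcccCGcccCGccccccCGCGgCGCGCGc
The *Dgkb* window held 3 CpG and was 45.6% G or C, and 71.0% of the 32851 windows of this length in the table held as many CpG or more. The *Dgkd* window held 21 CpG and was 67.2% G or C, and 16.3% of windows held as many or more. The GC box GGGCGG, searched on both strands, occurred at 5 non-overlapping sites before *Dgkd* and was not found before *Dgkb*. Further sites before *Dgkd* that share a base with a counted one were left out of that count. It is present in 32.7% of all windows. TATAAA (12.4% of windows) and the cAMP response element TGACGTCA (1.55% of windows), searched the same way, occurred in neither.

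Libraries held 16.6 M to 32.9 M gene counts, and the members together 3517 to 12342 counts per library. The infarcts differed in how much neuronal RNA they held. A neuron score was formed for each library as the mean, over 10 tested of 12 listed neuron markers, of log2 CPM centred per gene (CPM, counts relative to the library total after TMM scaling). Summed CPM of all 12 markers was 45.3 to 9149 in vehicle and 26.6 to 138 in HPβCD infarcts, and vehicle animals 1 (1522 CPM) and 3 (9149 CPM) stood apart from the rest. The marker *Nefm* was at 0 in 3 HPβCD libraries and *Gad2* in 1. The 2 neuron-rich pieces were not alike: summed CPM of the striatal neuron markers was 1597 in animal 1 and 153 in animal 3, and that of cortical excitatory neuron markers was 66.5 and 894. *Slc17a7*, the vesicular glutamate transporter of cortical neurons, was at 33.7 CPM in animal 1 and 499 CPM in animal 3. Group differences are therefore given for all 8 animals, at equal neuron score, and without vehicle animals 1 and 3. In pieces of tissue, fewer cells of a type and less RNA per cell cannot be told apart.

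Per kilobase of exon, most of the family's transcript came from *Dgkz* and *Dgkd*. In HPβCD infarcts *Dgkz* came first, at a level in CPM per kb of 15.5 ± 1.68 (SD, n = 4), followed by *Dgkd* with 8.85 ± 1.72, *Dgka* with 4.58 ± 0.696 and *Dgke* with 4.29 ± 0.363. The ranges of *Dgkz* and *Dgkd* did not overlap, nor did those of *Dgkd* and *Dgka*, whereas *Dgka* and *Dgke* overlapped. *Dgkq* (0.708 ± 0.054) and *Dgkh* (0.354 ± 0.072) came next, with ranges apart from each other. *Dgkb* (0.265 ± 0.032), *Dgki* (0.206 ± 0.136) and *Dgkg* (0.108 ± 0.025) were lowest, and each overlapped its neighbor in the order. A further family gene, *Dgkk*, was not among the 9 and had 0 to 6 counts per library, too few to be tested.

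In vehicle infarcts that order held less well, and the animals differed. The ranges of every pair of neighbors overlapped, apart from *Dgkh* and *Dgkk*. The whole family summed to 50.7, 38.6, 105.9 and 34.4 CPM per kb in vehicle animals 1 to 4 and to 38.8, 32.3, 37.2 and 31.1 in HPβCD animals 1 to 4. Animal 3 was highest, animal 1 next, and the other vehicle pieces lay within the HPβCD range. The makeup differed between those 2 animals as well: *Dgkb* made up 14.8% of the per-length total in animal 1 and 6.83% in animal 3, against 0.729% to 0.812% in HPβCD infarcts. *Dgkz* made up 28.3% in animal 1 and 58.4% in animal 3, against 41.7% to 47.6% in HPβCD infarcts.

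**Figure D1:**
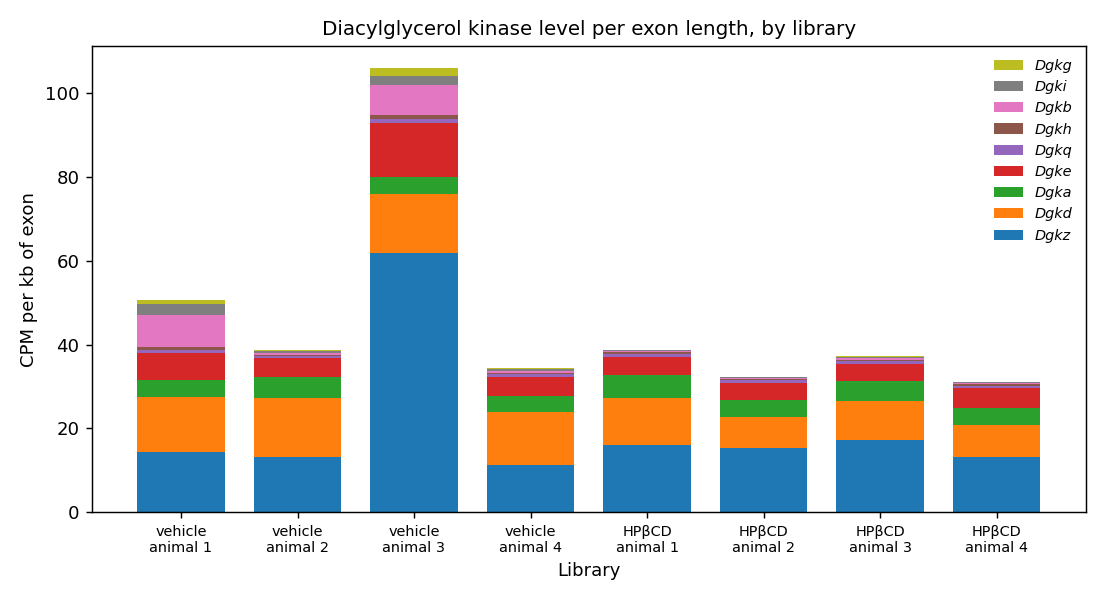
Stacked bars give the level of each of the 9 diacylglycerol kinases in CPM per kb of exon (y axis) in each of the 8 libraries (x axis). Vehicle animal 3 reached 105.9 in total, mostly *Dgkz*, and the *Dgkb* segment was tallest in vehicle animals 1 and 3.

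Between the groups, no member passed the threshold of edgeR's quasi-likelihood test (Benjamini-Hochberg adjusted p under 0.05), 0 of 9 against 1.95% of the 14736 genes tested. At an unadjusted p under 0.05 there were 4 members, where 27.8% of all genes were. DESeq2 called 4 members (17.8% of all genes) and limma-voom with sample quality weights called 1 (21.9%). Lower fitted values in HPβCD infarcts were found for 8 of 9 members, with a median log2 fold change of -0.70 against -0.05 over all genes. The groups did not overlap for *Dgkb*, *Dgkd* and *Dgki*, all lower with HPβCD, whereas 8.03% of all genes were separated in that direction. P-values here measure the spread between animals within each group.

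Among type I kinases, *Dgkb* had the widest spread of the family on the log2 scale, with a root mean square deviation from its mean of 1.97 over the 8 libraries. Its level was 85.2, 5.40, 82.3 and 6.08 CPM in vehicle animals 1 to 4 and 3.22, 2.76, 3.43 and 2.66 CPM in HPβCD animals 1 to 4. Both neuron-rich vehicle pieces were far above the rest, and the other 2 vehicle pieces still lay above every HPβCD piece. The log2 fold change of HPβCD over vehicle was -3.88 ± 1.01 (SE, n = 4 per group, edgeR adjusted p = 0.0752). Without vehicle animal 2 the same test called it (-4.25, adjusted p = 0.0467, 3.72% of genes called), and limma-voom, which gives less weight to aberrant libraries, gave -1.71 (adjusted p = 0.220).

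*Dgkg*, another calcium-binding type I kinase of neurons, was at 8.15, 1.44, 18.3 and 1.02 CPM in vehicle and 1.03, 1.16, 1.13 and 0.666 CPM in HPβCD infarcts. Vehicle animals 1 and 3 were high, with animal 3 above animal 1, and vehicle animal 4 lay inside the HPβCD range. The fitted log2 difference was -2.84 ± 0.91 (SE, adjusted p = 0.100 by edgeR), and it was -1.80 without vehicle animal 3. *Dgka*, the type I kinase of T lymphocytes, was at 19.7, 23.9, 18.6 and 18.8 CPM in vehicle and 26.3, 19.5, 22.4 and 19.0 CPM in HPβCD infarcts. The groups overlapped throughout, with a fitted log2 difference of 0.11 ± 0.16 (SE, adjusted p = 0.707 by edgeR). The T cell markers, summed, ranged from 65.2 to 89.8 CPM in vehicle and from 57.8 to 128 CPM in HPβCD infarcts, and 3 of 6 of them were higher and 3 lower.

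Of the type II kinases, *Dgkd*, which acts in growth factor receptor signaling, varied little within the vehicle group. It was at 90.4, 96.5, 96.5 and 85.8 CPM in vehicle and 75.6, 50.1, 64.4 and 52.3 CPM in HPβCD infarcts. Every vehicle piece was above every HPβCD piece, and the neuron-rich vehicle animals 1 and 3 lay between the other 2 or level with them. The fitted log2 difference was -0.61 ± 0.15 (SE, adjusted p = 0.0677 by edgeR). DESeq2 gave -0.60 (adjusted p = 0.00903) and limma-voom -0.60 (adjusted p = 0.0250), and both called it. *Dgkh*, a relative that shares its domain layout, was at 12.6, 4.51, 15.6 and 3.55 CPM in vehicle and 7.53, 6.31, 5.53 and 4.66 CPM in HPβCD infarcts. Here the HPβCD pieces lay between the neuron-rich and the neuron-poor vehicle pieces, and the fitted log2 difference was -0.59 ± 0.47 (SE, adjusted p = 0.450 by edgeR).

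*Dgke*, the type III kinase that prefers diacylglycerol with an arachidonoyl chain, was at 54.1, 38.1, 107.9 and 38.6 CPM in vehicle and 36.6, 33.2, 34.0 and 40.0 CPM in HPβCD infarcts. Vehicle animals 1 and 3 were high and the other vehicle pieces overlapped with HPβCD, and the fitted log2 difference was -0.73 ± 0.33 (SE, adjusted p = 0.184 by edgeR). *Dgkq*, the type V kinase, was at 4.86, 3.79, 6.96 and 4.95 CPM in vehicle and 5.06, 5.33, 5.42 and 4.55 CPM in HPβCD infarcts. Its groups overlapped, with a fitted log2 difference of -0.01 ± 0.22 (SE, adjusted p = 0.981 by edgeR). Its level is uncertain, since 30.8% of its exon length overlaps *Tmem175* and *Idua* on the other strand and the strand option of the counting is not given in the sources used here. For the other members such overlap was at most 3.54% of exon length, and 4.82% of *Dgkh* is shared with *Gm48998* on the same strand.

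The type IV kinases went different ways in the neuron-rich pieces. *Dgkz*, a kinase of both T cells and postsynaptic sites, was at 89.8, 82.5, 388.1 and 70.8 CPM in vehicle and 101.3, 96.6, 107.4 and 82.7 CPM in HPβCD infarcts. Only vehicle animal 3 stood out, and the other 3 vehicle pieces lay within or below the HPβCD range. The fitted log2 difference was -0.70 ± 0.56 (SE, adjusted p = 0.458 by edgeR) and turned to 0.26 without vehicle animal 3. *Dgki*, a neuronal relative, was at 17.3, 2.41, 12.7 and 3.12 CPM in vehicle and 0.747, 0.490, 2.36 and 1.55 CPM in HPβCD infarcts. All vehicle pieces were above all HPβCD pieces, although vehicle animal 2 exceeded HPβCD animal 3 by little. The fitted log2 difference was -2.77 ± 0.77 (SE, adjusted p = 0.0809 by edgeR), on 8 to 44 counts per HPβCD library.

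**Figure D2:**
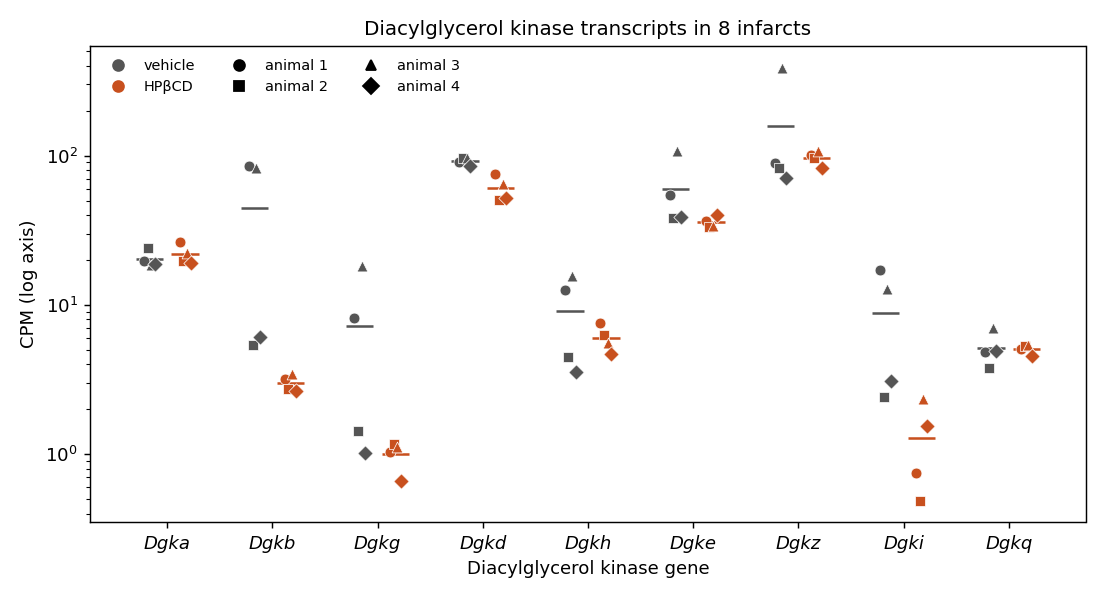
Each point is the CPM (log y axis) of a diacylglycerol kinase (x axis) in 1 animal, with vehicle in grey, HPβCD in orange, the shape giving the animal number and horizontal lines the group means. For *Dgkb*, *Dgkg*, *Dgkh*, *Dgki* and *Dgke* the vehicle group splits into animals 1 and 3 against 2 and 4. The groups do not overlap for *Dgkb*, *Dgki* and *Dgkd*, and of these only *Dgkd* shows no such split.

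To ask which members went with neuron transcripts, each gene was fitted with the treatment group and the neuron score of the library together. Positive slopes were called for *Dgkb*, *Dgkg*, *Dgki*, *Dgkz*, *Dgkh* and *Dgke*, which rose with the score (6 of 9, edgeR adjusted p under 0.05, against 12% of all genes). The steepest were *Dgkb* with 0.57 ± 0.11 log2 per unit of score (SE, adjusted p = 0.00902), *Dgkg* with 0.52 ± 0.08 (adjusted p = 0.00270) and *Dgki* with 0.42 ± 0.09 (adjusted p = 0.0120). *Dgkz* (0.27 ± 0.06, adjusted p = 0.0227), *Dgkh* (0.25 ± 0.07, adjusted p = 0.0308) and *Dgke* (0.17 ± 0.04, adjusted p = 0.0217) had shallower slopes. All were below the median slope of the 10 neuron markers, 1.17. Those markers make up the score, so their slopes on it are high by construction. *Dgkq* (0.07, adjusted p = 0.267), *Dgkd* (0.01, adjusted p = 0.823) and *Dgka* (-0.02, adjusted p = 0.714) were not called. Astrocyte markers rose with the score as well, 3 of 6 called, among them *Slc1a2* with 0.49 ± 0.09 (SE, edgeR adjusted p = 0.00843). *Gfap* was not called (0.13, edgeR adjusted p = 0.688), nor was any oligodendrocyte marker (0 of 6). A slope on this score is therefore not particular to neurons.

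These slopes rest on few animals and on the general neuron score. With a score of the striatal neuron markers in its place, 0 of 9 members were called (0.0543% of all genes). Without vehicle animal 3, 2 members stayed called, *Dgkb* (adjusted p = 0.0427) and *Dgki* (adjusted p = 0.00581), against 3.90% of all genes. Without vehicle animal 2 they were *Dgkb* (adjusted p = 0.0466) and *Dgkg* (adjusted p = 0.0223), and without vehicle animal 4 *Dgkg* (adjusted p = 0.0302) and *Dgki* (adjusted p = 0.0475), against 6.80% and 8.35% of all genes. Leaving out vehicle animal 1 or any HPβCD animal kept the count at 6.

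The neuron-rich pieces, 1 rich in striatal and 1 in cortical markers, differed in which kinases they held. The ratios of CPM in vehicle animal 3 to animal 1 compare 2 libraries only, and their 95% intervals cover counting error. Summed neuron markers were 5.99-fold higher in animal 3, cortical markers 13.4-fold higher, and striatal markers 10.4-fold higher in animal 1. Against that, *Dgkb* was level in both, with a ratio of 0.963 (0.894 to 1.04). *Dgki* was lower in animal 3, with 0.735 (0.613 to 0.879). *Dgkz* was 4.31-fold higher in animal 3 (4.08 to 4.56), *Dgkg* 2.24-fold (1.83 to 2.75) and *Dgke* 1.99-fold (1.84 to 2.16). Among the kinases that rose with the neuron score, *Dgkb* and *Dgki* were thus at like or higher level in the striatum-rich piece. *Dgkz*, *Dgkg*, *Dgke* and *Dgkh* were higher in the cortex-rich piece, each by less than the 5.99-fold of the neuron markers. With 1 library of each kind, the amount and the type of neurons cannot be told apart. *Dgkh* had a ratio of 1.23 (1.03 to 1.48) and *Dgkq* of 1.43 (1.07 to 1.91). The intervals of *Dgkd*, 1.07 (0.993 to 1.14), and *Dgka*, 0.942 (0.805 to 1.10), included 1. Summed oligodendrocyte markers also differed, with a ratio of 0.303, and their part in these ratios was not tested.

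**Figure D3:**
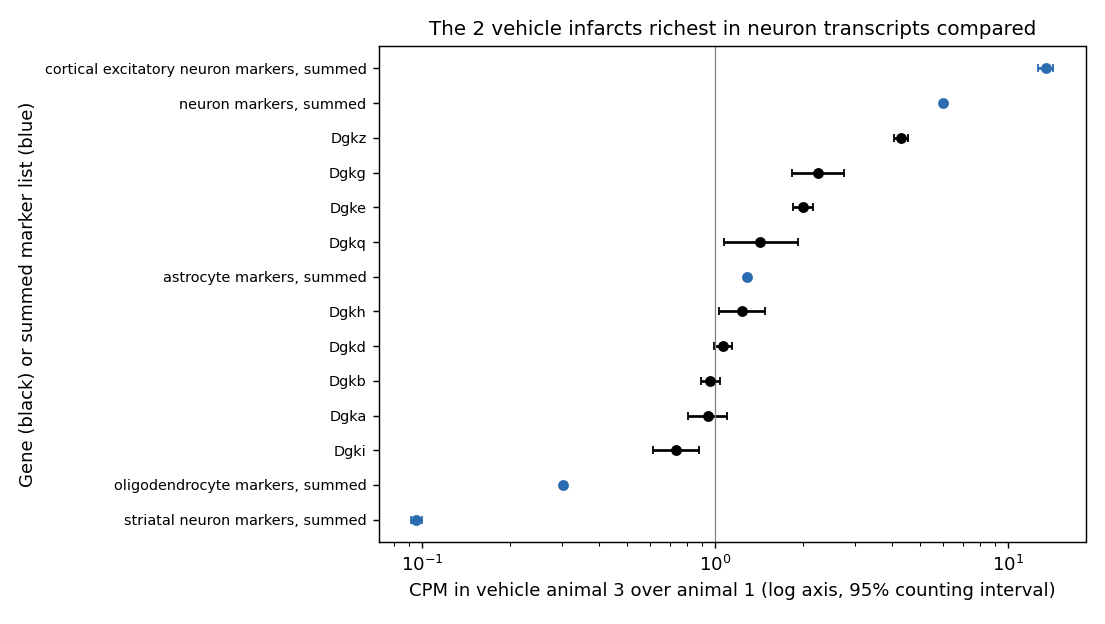
Points give the CPM of vehicle animal 3 divided by that of vehicle animal 1 (log x axis) for each kinase in black and for summed marker lists in blue, with 95% counting intervals as bars. *Dgkz* (4.31) lies closest to the neuron markers (5.99), the interval of *Dgkb* (0.963) includes 1, and *Dgki* (0.735) lies on the side of the striatal markers (0.0957).

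At equal neuron score no member was called by edgeR (0 of 9, against 0.0136% of genes) or by DESeq2 (4.88% of genes), and 2 of 9 had an unadjusted p under 0.05, where 18.7% of genes did. The median log2 fold change of the 9 was -0.01, against 0.00 over all genes. *Dgkd* changed least with the adjustment, to -0.56 ± 0.19 (SE, n = 4 per group, edgeR adjusted p = 0.184). *Dgki* was at -1.10 ± 0.46 (SE, edgeR adjusted p = 0.247) and *Dgkb* at -0.99 ± 0.60 (SE, edgeR adjusted p = 0.384), each much nearer to 0 than without the score. *Dgkg* (-0.15 ± 0.49) and *Dgke* (-0.01 ± 0.24) were then close to 0, and *Dgkh* (0.58 ± 0.39), *Dgkz* (0.55 ± 0.39) and *Dgkq* (0.25 ± 0.25) were on the higher side. *Dgka* was at 0.04 ± 0.20.

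Leaving out vehicle animals 1 and 3 gave much the same order from 2 vehicle and 4 HPβCD infarcts, with 0 of 9 called by edgeR (1.34% of genes) and 4 at an unadjusted p under 0.05, where 21.5% of genes were. *Dgkb* was at -0.91 ± 0.23 (SE, edgeR adjusted p = 0.0887), *Dgkd* at -0.57 ± 0.18 (adjusted p = 0.132) and *Dgki* at -1.07 ± 0.54 (adjusted p = 0.281). *Dgkz* (0.35 ± 0.15, adjusted p = 0.216) and *Dgkh* (0.58 ± 0.26, adjusted p = 0.229) were again on the higher side. For *Dgkb* the neuron-poor vehicle pieces, at 5.40 and 6.08 CPM, remained above the HPβCD maximum of 3.43 CPM. These pieces were not free of neuronal RNA: their summed neuron markers were 76.7 and 45.3 CPM, against 26.6 to 138 CPM with HPβCD, so that HPβCD animal 3 exceeded both in neuron markers and was below both in *Dgkb*.

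**Figure D4:**
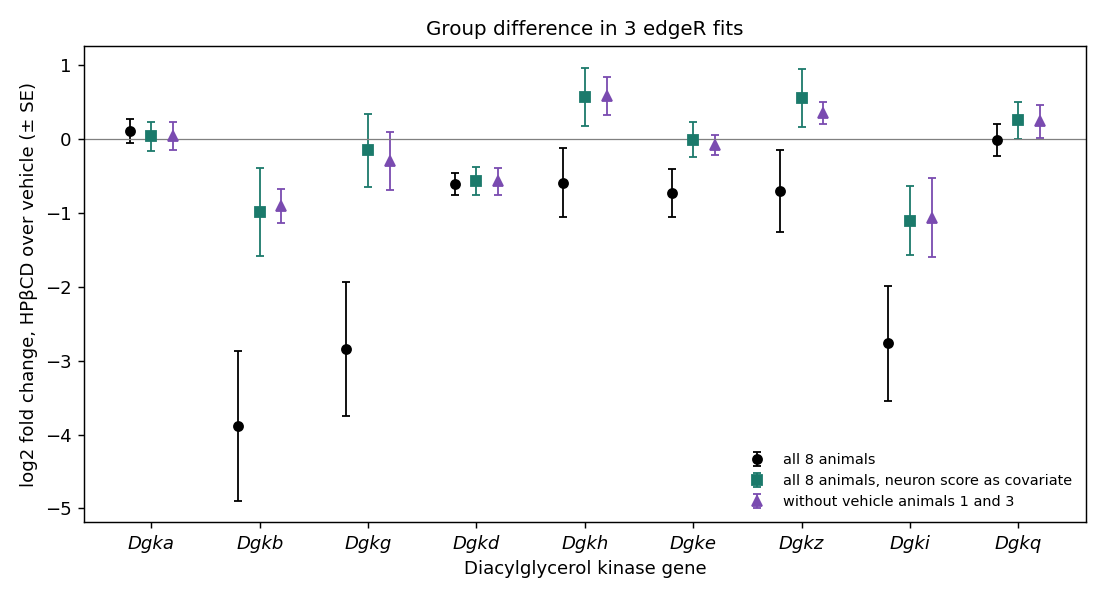
Log2 fold changes of HPβCD over vehicle with SE bars (y axis) are plotted for each kinase (x axis) from all 8 animals, from all 8 animals with the neuron score as covariate, and without vehicle animals 1 and 3. *Dgkd* stays between -0.61 and -0.56 in the 3 fits, while *Dgkb* moves from -3.88 to -0.99 and -0.91.

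For *Dgkd*, markers of other cell types were set beside it. B cell markers were lower in HPβCD infarcts in 5 of 5 genes, with summed CPM of 134.6 to 494 in vehicle and 41.7 to 124 in HPβCD. With the B cell score as a covariate the log2 fold change of *Dgkd* was -0.37 (edgeR adjusted p = 0.425), the value nearest to 0 among the alternatives. Fibroblast markers were higher in 5 of 5 genes (2192 to 5730 CPM in vehicle, 8246 to 8810 CPM in HPβCD), and with that score *Dgkd* was at -0.55 (adjusted p = 0.185). With the astrocyte score it was at -0.69 (adjusted p = 0.997), with the oligodendrocyte score at -0.68 (adjusted p = 0.466) and with the microglia score at -0.63 (adjusted p = 0.462). Plasma cell markers were lower in 3 of 4 genes (1188 to 2641 CPM in vehicle, 325.7 to 560.5 CPM in HPβCD) and foamy macrophage markers higher in 5 of 6 (5657 to 10574 CPM and 13032 to 20147 CPM), and their part in the *Dgkd* difference was not tested. None of the alternatives run turned its direction, and leaving out any 1 animal gave -0.72 to -0.52. *Dgkb*, in contrast, was at 0.15 with the fibroblast score (adjusted p = 0.954) and at -0.65 with the striatal and cortical scores together (adjusted p = 0.276). The scores differ between the groups themselves, so treatment and tissue makeup cannot be told apart in full.

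Among the genes that make or use diacylglycerol and phosphatidic acid, edgeR called none either. Of 54 listed, 53 were tested, 26 were higher and 27 lower in HPβCD infarcts, and edgeR called 0 (lowest adjusted p = 0.0583, 1.95% of all genes called), with 22 at an unadjusted p under 0.05, where 27.8% of all genes were. DESeq2 called 16 of the 53 (3 higher and 13 lower, 17.8% of all genes called) and limma-voom 12 (8 higher and 4 lower, 21.9% of all genes), so the split by direction differed between the tools. Their median log2 fold change was -0.07, against -0.05 over all genes. Of the 53, 14 rose with the neuron score, a larger share than the 12% of all genes. For 12 of the 53 the groups did not overlap, against 16.8% of all genes. The phospholipases C, which release diacylglycerol, were 5 higher and 6 lower. *Plcg1*, the form downstream of receptor tyrosine kinases, was at 64.9 ± 2.41 CPM in vehicle and 79.9 ± 9.70 in HPβCD infarcts (SD, n = 4, edgeR adjusted p = 0.159), with no overlap between the groups. *Plce1*, a form that Ras binds, was at 77.8 ± 29.8 and 72.4 ± 10.2 CPM (adjusted p = 0.855 by edgeR), and its groups overlapped. The phosphatidate phosphatases and phospholipases D, which work on phosphatidic acid or form it from other lipids, were 7 higher and 1 lower. *Lpin1*, which turns phosphatidic acid back into diacylglycerol, was at 57.9, 74.7, 53.7 and 73.8 CPM in vehicle and 87.4, 100.2, 105.1 and 98.4 CPM in HPβCD infarcts. The groups were apart, with a fitted log2 difference of 0.59 ± 0.15 (SE, adjusted p = 0.0658 by edgeR) and of 0.43 ± 0.15 at equal neuron score (adjusted p = 0.204). *Plpp3*, a lipid phosphate phosphatase of the cell surface, was at 927 ± 137 CPM in vehicle and 1354 ± 223 in HPβCD infarcts (SD, n = 4, edgeR adjusted p = 0.107), and its groups overlapped.

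Among diacylglycerol acyltransferases and lipases, 3 were higher and 2 lower. *Daglb*, which cleaves diacylglycerol to the endocannabinoid 2-arachidonoylglycerol, was at 89.0 ± 12.3 CPM in vehicle and 118.7 ± 14.3 in HPβCD infarcts (SD, n = 4, edgeR adjusted p = 0.115). *Mgll*, which breaks that endocannabinoid down, was at 140.5 ± 89.0 and 162.4 ± 9.33 CPM (adjusted p = 0.753 by edgeR), with overlap between the groups. The genes that lead from phosphatidic acid to phosphoinositides were 5 higher and 4 lower, and *Cds2* and *Pi4ka* overlapped between the groups. Of the targets of diacylglycerol, 3 were higher and 7 lower among protein kinases C and D (median -0.88) and 3 higher and 7 lower among the other effectors (median -1.13). In each of these lists 4 of 10 rose with the neuron score, against 12% of all genes. *Prkcb* was at 405 ± 312 CPM in vehicle and 162 ± 19.4 in HPβCD infarcts (SD, n = 4, edgeR adjusted p = 0.142), and its log2 fold change went from -1.32 to 0.05 at equal neuron score. *Prkd3*, a protein kinase D, was at 120.6 ± 32.3 and 137.2 ± 6.65 CPM (adjusted p = 0.600 by edgeR) and overlapped.

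*Rasgrp1*, an activator of Ras that diacylglycerol recruits and that both neurons and T cells use, had a pattern like that of *Dgkb*. It was at 188.6, 42.2, 275.8 and 27.2 CPM in vehicle and 13.4, 9.13, 22.4 and 15.8 CPM in HPβCD infarcts. The neuron-rich vehicle pieces were highest and the other vehicle pieces still lay above all HPβCD pieces. The fitted log2 difference was -3.13 ± 0.78 (SE, adjusted p = 0.0704 by edgeR) and -1.03 ± 0.22 at equal neuron score (adjusted p = 0.0931). Its slope on the neuron score was 0.46 ± 0.04 log2 per unit (adjusted p = 0.000127). Its relative *Rasgrp3* was at 61.8 ± 14.5 CPM in vehicle and 63.7 ± 13.5 in HPβCD infarcts (SD, n = 4, edgeR adjusted p = 0.922), and its groups overlapped.

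The genes whose pattern was nearest to *Dgkb*, by the root mean square difference of centred log2 CPM over the 8 libraries among 13947 genes averaging 1 CPM or more, were *Ppp1r9a* (0.29), *Cacna2d3* (0.34) and *Grid1* (0.34). *Ppp1r9a*, a neuronal actin-binding protein, reached 274 and 339 CPM in vehicle animals 1 and 3, and lay at 15.0 and 21.3 in the other 2 and at 7.41 to 14.5 in HPβCD infarcts. The neuron marker *Snap25* was farther, at 2.21, with 335 CPM in animal 1 and 3023 CPM in animal 3, where *Dgkb* was level. This distance also grows with the size of a gene's swing, so it does not measure unlike shape alone. A gene that did not vary would lie at 1.97 from *Dgkb*. By the same measure, and named after the values were seen, the nearest gene to *Dgkz* was *Pip5k1c* (0.07), a kinase that makes phosphatidylinositol bisphosphate. The nearest to *Dgkg* was *Prkce* (0.263), a protein kinase C, with *Gnaz* (0.265) almost as near. The nearest to *Dgkd* was *Qrsl1* (0.14), followed by *Ctps* (0.15), and neither is a neuron marker. A gene without variation would lie at 0.72 from *Dgkz*, 1.53 from *Dgkg* and 0.36 from *Dgkd*. For the other members the nearest were *Hars2* (*Dgka*), *Cpeb3* (*Dgke*), *Cacna2d2* (*Dgkh*), *Necab1* (*Dgki*) and *Ndufb11* (*Dgkq*). None of these last genes is among the listed genes that make or use diacylglycerol and phosphatidic acid.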

How the data were processed

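Bulk RNA-Seq of 8 stroke infarcts was examined, with groups and animal numbers taken from the sample labels, which give no batch. The authors made strand-specific libraries from polyadenylated RNA, trimmed reads with Trimmomatic 0.32, aligned them to GRCm38 with STAR 2.5.2b and counted them with HTSeq. The values they deposited are raw counts per gene. The annotation release and the strand option of the counting are not given in the sources used here. Reads assigned to no gene (26.6% to 36.6% per library) were left out. Of 46078 identifiers, 45143 matched a symbol. Coordinates and exon lengths are those of GENCODE M21.

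The main test was edgeR 4.0.16 in R 4.3.3 (robust quasi-likelihood F test, TMM factors, filterByExpr by group, Benjamini-Hochberg adjustment over 14736 genes, threshold 0.05), also with the neuron score as covariate. Log2 CPM used a prior count of 2. Alternatives were DESeq2 1.42.0 (the tool of the study), limma-voom (limma 3.58.1), other scalings, no filter, a block for animal number and left-out animals, and covariates for other cell types were added after the data were seen. Intervals on ratios of counts are exact and cover counting error only. The fits with the neuron score were also run on simulated counts with known changes, in which treatment left the score markers unchanged. That run does not show how the fits behave when treatment alters those markers themselves. The members and gene lists were chosen with earlier results of these data known. Genes that could be named were the 2 with the highest mean CPM in each list and the 3 nearest in pattern to *Dgkb*. Markers at 0 and the genes nearest to other members were named after their values were seen.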

Additional observations from a re-analysis of the deposited data

Results flagged for a closer look

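Within the vehicle group, *Dgkz* in animal 3 lay far from the others, at 8.60 log2 CPM against 6.15 to 6.49 in the other 3 animals. Among 46 sets of 4 values searched, this was the 1 that stood out, where chance gives about 2.3. The same library held the highest summed neuron markers (9149 CPM) and cortical excitatory neuron markers (894 CPM), and their part in the *Dgkz* value was not tested.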

How the results depend on the processing

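Depth limits the members with few counts, such as *Dgki* with 8 to 44 per HPβCD library. At 4 animals per group, counts over all genes depended strongly on the setting and the cause was not tested. edgeR called 287 genes, against 2619 with DESeq2, 3232 with limma-voom, 11 with library totals alone, 9 with the animal number as a replicate block, 2 with the neuron score, 0 with the astrocyte, the oligodendrocyte, the B cell or the microglia score, 161 with the fibroblast score, 4 with striatal and cortical scores, and 0 to 629 when 1 animal was left out. Members called were 4 with DESeq2 (*Dgkb* -3.88, *Dgkg* -2.84, *Dgkd* -0.60, *Dgki* -2.76), 1 with limma-voom (*Dgkd* -0.60) and 0 to 1 when 1 animal was left out (*Dgkb* -4.25 to -3.37). DESeq2 gave no p for *Dgkz*. The median log2 fold change of all genes, -0.05, became -0.13 with library totals alone and -0.15 without the filter.

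At equal neuron score 2 genes were called, against 719 with DESeq2, 140 without the filter, 0 with the striatal score or the replicate block, and 0 to 209 when 1 animal was left out. For the slope, 2304 genes and 6 members were called, against 8 and 0 with the striatal score, 0 and 0 with the replicate block, and 582 to 2621 genes and 2 to 6 members when 1 animal was left out.

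Several members turned direction between the groups. *Dgkq*, near 0, was at 0.0025 with DESeq2, 0.17 with limma-voom, 0.025 without the filter, 0.016 with the replicate block, 0.24 without vehicle animals 1 and 3, 0.25 with the neuron score, 0.21 with the astrocyte, 0.58 with the fibroblast, 0.0033 with the microglia and 0.24 with the striatal and cortical scores, and at -0.13 to 0.17 when 1 animal was left out. *Dgkh* was at 0.38 with limma-voom, 0.58 without vehicle animals 1 and 3, 0.58 with the neuron, 1.18 with the fibroblast and 0.69 with the striatal and cortical scores. *Dgkz* was at 0.26, 0.35, 0.55, 1.42 and 0.43 in the same fits and at -0.94 to 0.26 when 1 animal was left out. *Dgka* was at -0.10 with the astrocyte and -0.078 with the fibroblast score, and the latter turned *Dgkb* (0.15), *Dgkg* (0.94) and *Dgke* (0.59). At equal neuron score *Dgka* was at -0.10 with library totals alone, -0.18 with the replicate block and -0.11 to 0.20 with 1 animal left out, *Dgkz* at -0.73 with the striatal score, *Dgkg* at 0.019 with the block and -0.39 to 0.34 with 1 animal left out, and *Dgke* at 0.087 and -0.10 to 0.22. The slope of *Dgkd* was -0.0027 with library totals alone, -0.0045 with the striatal score and -0.074 with the block, and that of *Dgkz* -0.014 with the striatal score. Same-numbered animals were not paired by design, with correlations of their deviations from the group means of -0.26, 0.24, 0.33 and 0.10, and the replicate block left 0 members called in each comparison.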
